A study of Mus musculus with 15 samples.

Results

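The 9 TGF-β pathway genes described here were followed in iNKT cells, the CD1d-restricted T cells that carry a semi-invariant TCR. They are the ligand gene Tgfb1, the receptor genes Tgfbr1 and Tgfbr2, the Smad genes Smad2, Smad3, Smad4 and Smad7, and the Smad-binding corepressor genes Ski and Skil. They were taken by name from the 48795 genes listed for each sample, and all 9 passed the filter on low counts that left 13600 genes.

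iNKT cells were sorted from thymus, spleen, mesenteric lymph node (mLN) and inguinal lymph node (iLN) of WT C57BL/6 mice aged 6 weeks, gated on the CD1d tetramer and TCRβ after exclusion of cells with CD8, B220, CD11b or CD11c. The 15 RNAseq libraries comprised 4 of thymus, 4 of spleen, 4 of mLN and 3 of iLN (replicates 2, 3 and 4). Replicates 1 and 2 form the batch labelled Second and replicates 3 and 4 the batch labelled First, and the mice of all groups carried no modification or treatment. Lymph nodes were digested briefly with collagenase before straining, while spleen and thymus were passed through a strainer without digestion. Tissue and preparation therefore cannot be told apart where lymph nodes are compared with spleen or thymus. Thymus and spleen were prepared alike, as were mLN and iLN. How many mice went into a replicate is not given in the sources used here.

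TGF-β is secreted in a latent form and, once active, binds the receptor chain encoded by Tgfbr2, which recruits and phosphorylates the chain encoded by Tgfbr1. The active receptor phosphorylates Smad2 and Smad3, which join Smad4 and enter the nucleus, while Smad7 blocks the receptor and Ski and SnoN (the product of Skil) bind the Smads on DNA and repress their targets. TGF-β signals are needed for normal development of iNKT cells in the thymus, and Smad7 and Skil are themselves well-known targets of the pathway.

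In GRCm38, Tgfb1 (ENSMUSG00000002603) lies on chromosome 7 from 25687002 to 25705077, Tgfbr1 (ENSMUSG00000007613) on chromosome 4 from 47353222 to 47414931 and Tgfbr2 (ENSMUSG00000032440) on chromosome 9 from 116084293 to 116175360. Smad3 (ENSMUSG00000032402) lies on chromosome 9 from 63646767 to 63757994. Chromosome 18 holds Smad2 (ENSMUSG00000024563, from 76241580 to 76310963), Smad4 (ENSMUSG00000024515, from 73639009 to 73703780) and Smad7 (ENSMUSG00000025880, from 75367529 to 75395935). Ski (ENSMUSG00000029050) lies on chromosome 4 from 155154075 to 155222592 and Skil (ENSMUSG00000027660) on chromosome 3 from 31095058 to 31122577. All are protein-coding, and no exon of another gene overlaps theirs in GENCODE M21.

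The total expected count per sample was between 1152702 (thymus replicate 2) and 8670570, and the 9 genes held between 43 and 2234 expected counts in a sample, the lowest for Smad7 in thymus replicate 2. Mitochondrial rRNA took 10.5% to 23.1% of the counts. The 10 markers of iNKT and T cells summed to between 3258 and 5336 CPM in every sample, with Zbtb16 at 78.9 CPM or more. Markers of other cell types differed between tissues. The 5 red cell markers summed to 24.0 to 117 CPM in spleen, 1.71 to 14.7 in thymus, 0.624 to 2.31 in mLN and 0.513 to 4.84 in iLN. The 6 myeloid markers summed to 9.76 to 53.9 CPM in spleen against 1.11 to 3.79 in thymus, 6.35 to 17.9 in mLN and 1.97 to 8.94 in iLN. The 6 B cell markers reached 267 CPM in 1 spleen sample and 113 CPM in 1 mLN sample, and did not exceed 34.9 CPM in iLN and 6.54 in thymus. The 3 markers of regulatory T cells summed to 179 to 249 CPM in thymus, 371 to 502 in spleen, 291 to 471 in mLN and 540 to 713 in iLN. Most of this came from Ikzf2 and Il2ra, whereas Foxp3 averaged 0.577 CPM in thymus, 1.25 in spleen, 10.6 in mLN and 10.8 in iLN. The 5 markers of CD8 T cells and immature thymocytes summed to 12.9 to 63.9 CPM in thymus and to at most 13.5 CPM in the other tissues, with Rag1 at a mean of 13.2 CPM in thymus and at 0 in both LNs. The 5 markers of stroma and endothelium summed to 26.9 to 102 CPM, nearly all of it Pecam1 (Col3a1 and Pdgfrb were at 0 in all samples), and the 4 platelet markers did not exceed 4.51 CPM.

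Levels of different genes were compared in TPM, which corrects for transcript length. Over the 15 samples the mean level was 75.5 TPM ± 30.96 (SD, n = 15) for Smad3, 60.9 ± 16.8 for Tgfbr2, 59.3 ± 15.7 for Tgfb1, 50.05 ± 22.7 for Ski and 40.5 ± 32.0 for Smad4. Lower levels were found for Smad2 (33.7 TPM ± 17.7), Skil (30.5 ± 13.4), Smad7 (15.9 ± 6.27) and Tgfbr1 (11.6 ± 4.34). Each gene in this order differed from the next by less than the larger of their SDs, with the exception of Skil and Smad7. Smad3 stood at percentile 91.7 of the mean TPM of the 13600 genes tested and Tgfbr1 at percentile 51.7, so that the type I receptor chain was the least abundant of the 9 mRNAs and the type II chain among the most abundant. The effective length that RSEM assigned to a gene, which depends on its mixture of transcripts, varied between samples from 1088 to 3183 bases for Smad4, from 1509 to 4632 for Smad3 and from 1340 to 2668 for Smad2, whereas that of Tgfbr2 stayed between 4520 and 4574. It varied 1.63-fold for Tgfbr1, 1.40-fold for Smad7 and by 1.26-fold or less for Skil, Ski and Tgfb1. The TPM of Smad2, Smad3, Smad4 and Tgfbr1 in particular therefore carries the spread of this assignment as well as that of the counts.

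**Figure D1:**
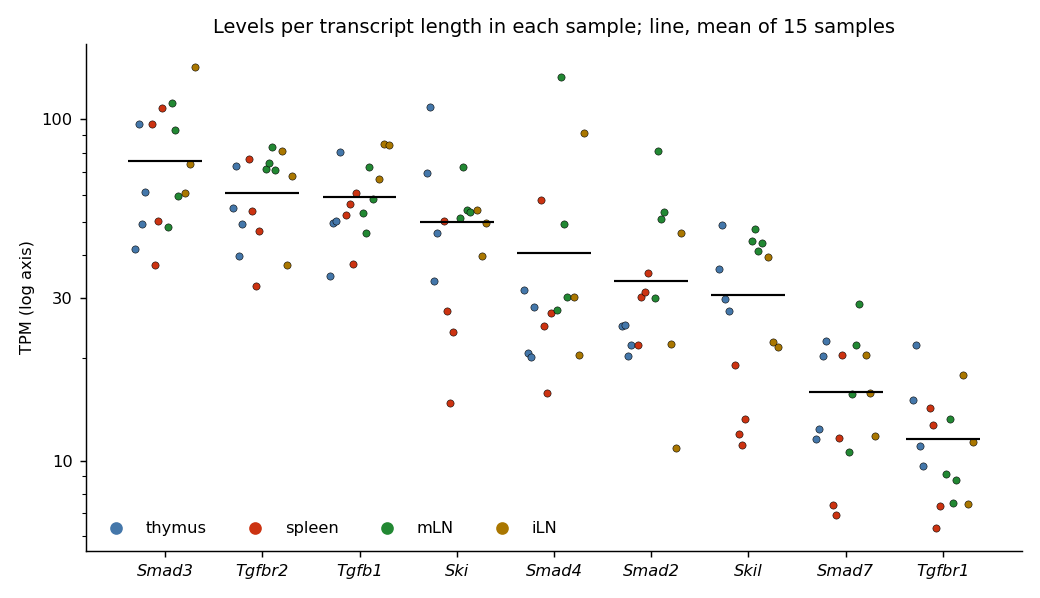
TPM (log axis) of the 9 genes in each of the 15 samples, ordered by their mean; points are samples coloured by tissue and lines are means of the 15 samples. Smad3 has the highest mean (75.5 TPM) and Tgfbr1 the lowest (11.6 TPM), and Smad4 ranges from 15.8 to 133 TPM.

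To ask which of the genes differed between tissues, a quasi-likelihood model (edgeR) with terms for tissue and batch was applied to the expected counts of all 13600 genes. The call rule required both a fold change over 1.5 and an adjusted p (Benjamini-Hochberg, over all genes) under 0.01. Values per sample are given as CPM, the count scaled to a fixed library size after TMM normalization. Over the 6 pairs of tissues, 5 of the 54 tests of the 9 genes were called, against 1.18% of the tests of all genes. All 5 belong to Ski and Skil, and in all 5 spleen was the lower tissue. With the adjusted p under 0.05 and no minimum fold, 6 of the 54 tests passed (2.58% over all genes), again of Ski and Skil against spleen. In the test of the 4 tissues together, called at an adjusted p under 0.01, Skil (edgeR adjusted p = 5.45e-05) and Ski (0.00206) were 2 of 9, where 3.38% of all genes were called, and Tgfbr2 had the next lowest adjusted p (0.0946).

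**Figure D2:**
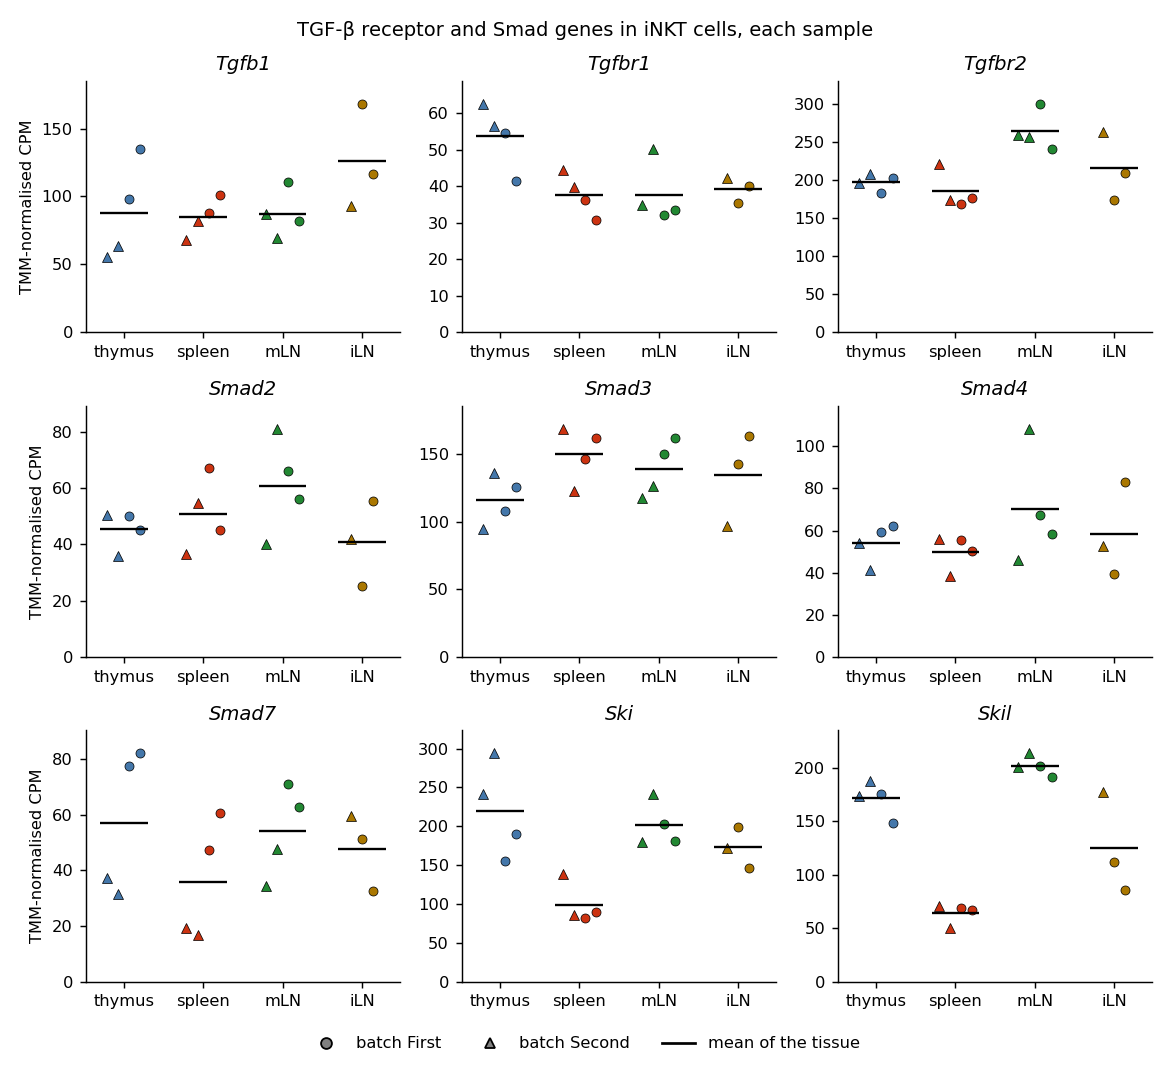
TMM-normalised CPM of the 9 genes in each sample by tissue; circles are samples of batch First, triangles of batch Second, and lines are tissue means. Spleen samples lie below all other samples for Ski and Skil, mLN samples lie above all spleen and thymus samples for Tgfbr2, and Smad7 is lower in batch Second than in batch First in thymus, spleen and mLN.

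Ski and Skil were lower in splenic iNKT cells than in cells of every other tissue, by about 2-fold for Ski and 2- to 3-fold for Skil. The Ski protein recruits histone deacetylase complexes to Smad-bound DNA. Its gene had 139, 85.5, 81.5 and 89.1 CPM in spleen replicates 1 to 4. Thymus replicates 1 to 4 had 241, 294, 155 and 190.1 CPM, mLN replicates 1 to 4 had 180.1, 241, 203 and 181 CPM, and iLN replicates 2 to 4 had 172, 199 and 147 CPM. All 11 samples from outside the spleen were above all 4 spleen samples, narrowly so, since the highest spleen sample (replicate 1) had 139 CPM and the lowest other sample (iLN replicate 4) had 147. This separation, met by 0.493% of all genes tested, was shared by Skil.

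The means for Ski were 98.7 CPM ± 26.9 (SD, n = 4) in spleen, 220.1 ± 60.6 (n = 4) in thymus, 201 ± 28.8 (n = 4) in mLN and 173 ± 26.3 (n = 3) in iLN. Against spleen, the log2 fold change was 1.14 (SE 0.185, edgeR adjusted p = 0.00109) in thymus, a 2.203-fold difference, and 1.04 (SE 0.184, adjusted p = 0.00567) in mLN, a 2.06-fold difference. In iLN it was 0.88 (SE 0.198, adjusted p = 0.0149), past the 0.05 rule only. The difference between thymus and spleen was called in all 15 fits that left out 1 library (adjusted p between 7.35e-04 and 0.00785). That between mLN and spleen was not called without any one of thymus replicate 4, spleen replicates 2, 3 and 4 and mLN replicates 2, 3 and 4 (adjusted p between 0.0102 and 0.0329). A block for the replicate number instead of batch lost the mLN call as well (log2 fold change 1.04, adjusted p = 0.0105). Without spleen replicate 1, iLN was called (adjusted p = 0.00922), as it was by DESeq2 (adjusted p = 9.32e-04), without a filter on low counts (0.00307) and with at least 10 counts in every sample (0.00887). In the test of 4 tissues Ski was not called without spleen replicate 2, 3 or 4 (adjusted p between 0.0123 and 0.0138).

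SnoN, the product of Skil, binds Smad4 and the receptor-activated Smads and is degraded when the pathway is switched on. Skil had 70.9, 49.7, 69.3 and 67.1 CPM in spleen replicates 1 to 4, against 174, 188, 176 and 148 CPM in thymus replicates 1 to 4. In mLN replicates 1 to 4 it had 201, 214, 202 and 191 CPM, and in iLN replicates 2 to 4 it had 177, 112 and 86.2 CPM. Spleen samples again formed the lowest group, the 4 mLN samples were above all samples of the other 3 tissues, and the iLN samples were the most spread, with the sample of batch Second close to thymus and those of batch First between thymus and spleen.

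The means for Skil were 64.2 CPM ± 9.79 (SD, n = 4) in spleen, 172 ± 16.7 (n = 4) in thymus, 202 ± 9.27 (n = 4) in mLN and 125 ± 46.9 (n = 3) in iLN. The log2 fold change against spleen was 1.65 (SE 0.186, edgeR adjusted p = 1.02e-04) in mLN, a 3.13-fold difference, and 1.41 (SE 0.185, adjusted p = 1.34e-04) in thymus, a 2.65-fold difference. Both were called in all 15 fits that left out 1 library. In iLN it was 0.97 (SE 0.195, adjusted p = 0.00733), a 1.95-fold difference. The iLN call was kept in 8 of 25 alternatives, and a block for the replicate number lost it (log2 fold change 0.94, adjusted p = 0.0178). It was also lost without any one of the 4 thymus samples, the 4 spleen samples, mLN replicates 3 and 4 and iLN replicates 2 and 3 (adjusted p between 0.011 and 0.0952). Over the fits without 1 library the log2 fold change lay between 0.63, without iLN replicate 2, and 1.14, without iLN replicate 4. Between the lymph nodes Skil was lower in iLN by a log2 difference of −0.68 (SE 0.198, adjusted p = 0.0956), and between mLN and thymus it differed by 0.24 (SE 0.181, adjusted p = 0.646). Neither was called, although the samples of mLN overlapped neither those of iLN nor those of thymus (4.01% and 3.82% of all genes separated in these directions).

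Read against all genes, 2 of 9 genes were called in thymus against spleen and 2 of 9 in mLN against spleen, where 1.32% and 0.654% of all genes were called. In iLN against spleen 1 of 9 was called (1.55% of all genes). No gene of the 9 was called in mLN against thymus, iLN against thymus or iLN against mLN (1.6%, 1.5% and 0.471% of all genes by edgeR). Being above spleen in all 3 other tissues at an adjusted p under 0.05, as Ski and Skil were, held for 0.243% of all genes tested.

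**Figure D3:**
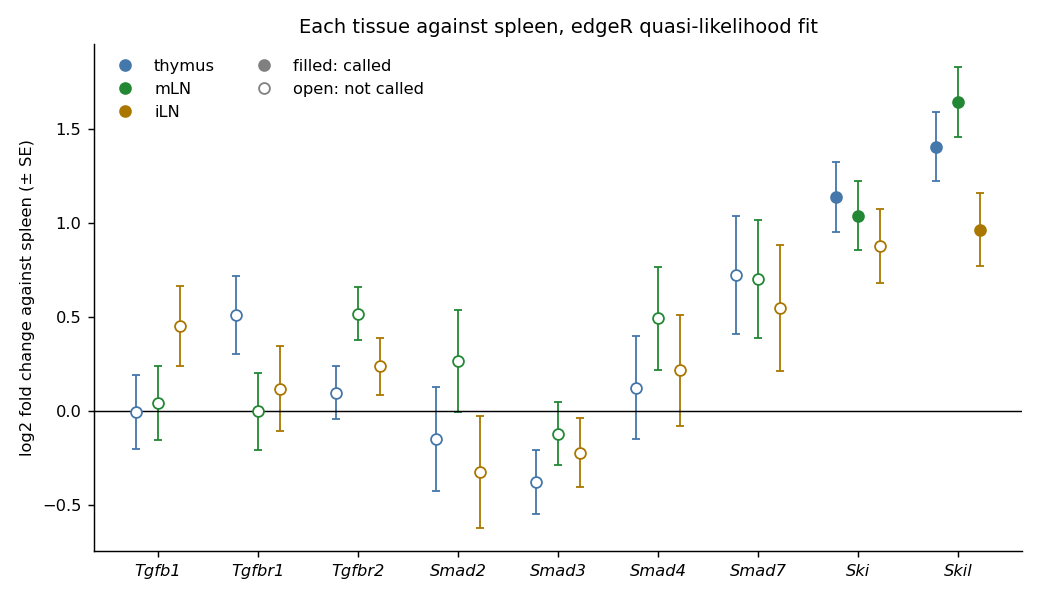
log2 fold change of each gene in thymus, mLN and iLN against spleen, with the SE of the fit as bars; filled points passed an adjusted p under 0.01 and a fold change over 1.5. Only Ski and Skil have filled points, with log2 fold changes of 0.97 to 1.65, and the 3 Smad7 points lie between 0.55 and 0.73 with SEs above 0.31.

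Each batch holds 2 samples per tissue (1 for iLN in batch Second). As all samples from outside the spleen lay above all spleen samples, the direction had to be the same in both batches. The sizes within a batch are given as a description. For Ski the log2 fold change against spleen was 1.01 in batch First and 1.24 in batch Second for thymus, 1.15 and 0.90 for mLN, and 1.002 and 0.60 for iLN. For Skil it was 1.24 and 1.57 for thymus, 1.51 and 1.77 for mLN, and 0.52 and 1.53 for iLN. No fit within a batch passed the call rule (adjusted p between 0.0182 and 0.64 over these 12 fits).

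Since RNA was measured in sorted populations, a smaller share of cells that express Ski or Skil and less RNA per cell cannot be told apart. Red cell markers were higher in all 4 spleen samples than in all other samples, as given above, and myeloid markers were higher in all spleen samples than in all thymus samples. The summed markers of regulatory T cells, mostly Ikzf2 and Il2ra, were higher in all spleen samples than in all thymus samples. The sum in spleen was lower than in all iLN samples and overlapped that of mLN. Foxp3 alone averaged 1.25 CPM in spleen, 0.577 in thymus, 10.6 in mLN and 10.8 in iLN. Markers of CD8 T cells and immature thymocytes were highest in thymus, with 1 thymus sample within the range of spleen. The part of any such cells in the lower Ski and Skil of spleen was not tested. Ski and Skil themselves moved together over the samples (Pearson's r of log2 CPM 0.846 over 15 samples that fall into 4 tissues and 2 batches, given as a description).

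**Figure D4:**
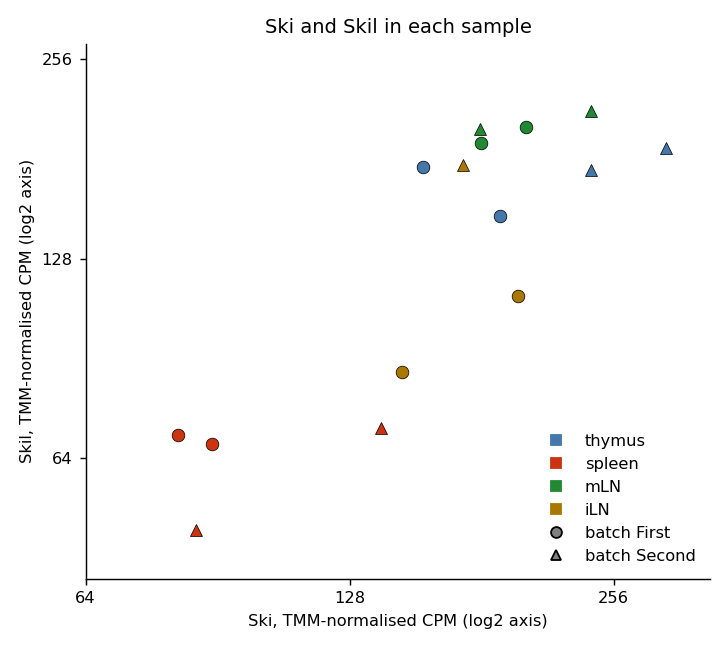
Ski against Skil in each sample, both in TMM-normalised CPM on log2 axes, coloured by tissue and with the batch as the shape of the point. The 4 spleen samples lie apart at the lower left, below 140 CPM for Ski and below 71 CPM for Skil, and 2 iLN samples of batch First lie between them and the rest in Skil.

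Of the 10146 genes with a mean of at least 5 CPM, those most like Skil over the 15 samples were St8sia1 (ganglioside GD3 synthase, r = 0.933), Ephx1 (microsomal epoxide hydrolase, r = 0.932) and Rgs10 (a regulator of G protein signalling, r = 0.915). Those most like Ski were St8sia1 (r = 0.853), Prmt3 (an arginine methyltransferase, r = 0.848) and Ephx1 (r = 0.845). St8sia1 had 7.09 CPM ± 1.64 (SD, n = 4) in spleen, 92.0 ± 16.9 (n = 4) in thymus, 86.5 ± 29.3 (n = 4) in mLN and 38.9 ± 17.4 (n = 3) in iLN. Like Skil, it was lowest in spleen and intermediate in iLN. The genes were picked as the highest of all correlations, so that their r is a description.

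The region just upstream of Ski is shown because Ski was one of the 2 genes that differed. It covers the 193 bases upstream of both the RefSeq and the GENCODE start (RefSeq, GRCm38.p6, chr4:155222593-155222785, minus strand, written 5′ to 3′ as the gene is read), with every match to the GC box core GGGCGG on either strand in capitals.
Ski: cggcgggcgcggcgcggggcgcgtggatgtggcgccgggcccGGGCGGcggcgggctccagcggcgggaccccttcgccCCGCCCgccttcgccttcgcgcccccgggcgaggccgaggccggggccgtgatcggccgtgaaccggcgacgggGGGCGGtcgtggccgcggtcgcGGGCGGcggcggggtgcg
The window is 86.5% G and C, against a median of 51.3% over the same windows of 32851 RefSeq starts. It holds GGGCGG 4 times, a motif present in 23.5% of these windows, and the GC-rich Smad motif GGCGC 6 times (24.8% of windows), some of it in the same GC-rich stretches. The Smad box CAGAC (34.9% of windows), its palindrome GTCTAGAC (0.146%) and the AP-1 motif TGANTCA (5.31%) had no match in these letters on either strand. These GC-rich traits are not particular to Ski, since some genes that were not called had them as well, at lower values. The share of G and C was 74.1% for Tgfb1, 72.5% for Smad3, 75.6% and 54.9% for the windows of Tgfbr1, and 54.9% for Tgfbr2. GGGCGG matched 3 times for Tgfb1, 2 times for Smad3, 2 and 0 times for Tgfbr1, and 0 times for Tgfbr2. GGCGC matched 3 and 0 times for Tgfbr1, 1 time for Tgfb1, and 0 times for Smad3 and for Tgfbr2.

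The ligand and receptor genes passed neither rule in the edgeR fit. Tgfb1 encodes the TGF-β isoform that T cells make. It had 55.3, 63.2, 97.8 and 135 CPM in thymus replicates 1 to 4, 67.9, 82.2, 88.0 and 101.3 in spleen replicates 1 to 4, and 86.7, 69.4, 110.5 and 81.9 in mLN replicates 1 to 4. In iLN replicates 2 to 4 it had 92.9, 168 and 116 CPM. The iLN samples held the highest value but overlapped those of every other tissue. The means were 87.8 CPM ± 36.5 (SD, n = 4) in thymus, 84.8 ± 13.8 (n = 4) in spleen, 87.1 ± 17.2 (n = 4) in mLN and 126 ± 38.5 (n = 3) in iLN, and the log2 fold change of iLN was 0.45 (SE 0.213, edgeR adjusted p = 0.296) against spleen and 0.46 (SE 0.213, adjusted p = 0.286) against thymus.

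Tgfbr1 had 62.6, 56.6, 54.5 and 41.4 CPM in thymus replicates 1 to 4 and 44.4, 39.7, 36.1 and 30.7 in spleen replicates 1 to 4. In mLN replicates 1 to 4 it had 34.9, 50.2, 32.2 and 33.5 CPM, and in iLN replicates 2 to 4 it had 42.3, 35.5 and 40.0. In thymus, 3 of the 4 samples were above every sample of the other tissues, and replicate 4 lay among those. The log2 difference between thymus and the mean of the 3 peripheral tissues was 0.47 (SE 0.168, edgeR adjusted p = 0.169), and no gene of the 9 was called in this contrast (1.82% of all genes by edgeR). In that contrast 3 of the 9 had an unadjusted p under 0.05 (13.6% of all genes), Tgfbr1, Ski (0.50, SE 0.149, adjusted p = 0.0802) and Skil (0.54, SE 0.147, adjusted p = 0.0503), and Skil was called without iLN replicate 2 (0.66, adjusted p = 0.00517).

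Tgfbr2 was the receptor gene with the higher count and ran in another order. It had 258, 255.7, 299.6 and 241 CPM in mLN replicates 1 to 4, against 221, 174, 168 and 176 in spleen replicates 1 to 4 and 196, 207, 183 and 203 in thymus replicates 1 to 4. The iLN samples had 263, 173 and 209 CPM. All 4 mLN samples were above all spleen and thymus samples (3.04% and 3.82% of all genes separated in these directions), and the iLN samples spanned both ranges. The log2 fold change of mLN was 0.52 (SE 0.142, edgeR adjusted p = 0.0842) against spleen and 0.42 (SE 0.142, adjusted p = 0.148) against thymus, so that the difference did not pass either rule after adjustment over all genes. DESeq2 gave an adjusted p of 0.017 for mLN against spleen with a log2 fold change of 0.53.

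The study set lymph node cells against those of spleen and thymus. In this contrast of the mean of mLN and iLN with the mean of spleen and thymus, no gene of the 9 was called by edgeR, where 1.72% of all genes were. At an unadjusted p under 0.05 there were 3 of 9 (17.6% of all genes in either direction), all higher in LNs, and 1 of 9 passed an adjusted p under 0.05 (4.26% of all genes). That gene was Skil, with a log2 difference of 0.60 (SE 0.133, adjusted p = 0.0122), which DESeq2 called (adjusted p = 9.22e-04), as did the fit without iLN replicate 4 (adjusted p = 0.00349). The other 2 were Tgfbr2 (0.33, SE 0.104, adjusted p = 0.0862) and Ski (0.39, SE 0.136, adjusted p = 0.123). The median log2 difference was 0.26 over the 9 genes and 0.02 over all 13600 genes, and 8 of the 9 values were above 0 (51.7% of all genes). For Ski and Skil the contrast averages the low spleen with the high thymus.

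Of the receptor-activated Smads, Smad3 had 169, 123, 147 and 162 CPM in spleen replicates 1 to 4 and 94.4, 136, 108 and 125 in thymus replicates 1 to 4. It had 117, 127, 150.0 and 162 CPM in mLN replicates 1 to 4 and 96.7, 143 and 163 in iLN replicates 2 to 4. All tissues overlapped, and the lowest sample was in thymus. The largest of its 6 pairwise differences was that between thymus and spleen, at −0.38 on the log2 scale (SE 0.169, edgeR adjusted p = 0.404).

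Smad2, the partner of Smad3 downstream of the receptor, had 50.4, 36.02, 50.1 and 45.2 CPM in thymus replicates 1 to 4 and 36.5, 54.7, 67.3 and 45.2 in spleen replicates 1 to 4. In mLN replicates 1 to 4 it had 40.2, 81.1, 66.0 and 56.1 CPM, and in iLN replicates 2 to 4 it had 41.8, 25.2 and 55.2. The mLN samples reached the highest value and iLN the lowest, and every tissue overlapped the others. Its largest pairwise difference was between iLN and mLN, at −0.59 (SE 0.301, edgeR adjusted p = 0.403).

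Smad4, the shared partner of the receptor-activated Smads, was close to Smad2 in level. It had 54.3, 41.2, 59.2 and 62.0 CPM in thymus replicates 1 to 4, 56.0, 38.5, 55.3 and 50.03 in spleen replicates 1 to 4, and 46.03, 108, 67.4 and 58.2 in mLN replicates 1 to 4. In iLN replicates 2 to 4 it had 52.8, 39.6 and 83.1 CPM. The highest Smad4 and the highest Smad2 were in the same library, mLN replicate 2, and the lowest iLN value of both genes was in replicate 3. The mLN-to-spleen difference was 0.49 (SE 0.274, edgeR adjusted p = 0.508) and fell to 0.13 without mLN replicate 2.

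Smad7, the inhibitory Smad that targets the receptor for degradation, had values that followed the batch in thymus, spleen and mLN. In batch Second it had 37.1 and 31.6 CPM in thymus, 19.2 and 16.7 in spleen, and 34.5 and 47.9 in mLN. In batch First it had 77.7 and 82.1 CPM in thymus, 47.3 and 60.6 in spleen, and 70.9 and 62.8 in mLN. In each of these 3 tissues both samples of batch First were above both of batch Second. In iLN the sample of batch Second (59.6 CPM) was above the samples of batch First (51.2 and 32.5 CPM). The batch difference was not tested, and how many of all genes separate by batch in this way was not counted. The share of counts on nuclear genes that overlap rRNA also differed between the batches, with medians of 12.8% in batch First and 3.73% in batch Second, and its part in the Smad7 difference was not tested.

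With batch in the fit, the log2 fold change of Smad7 against spleen was 0.73 (SE 0.315, edgeR adjusted p = 0.385) in thymus, 0.70 (SE 0.314, adjusted p = 0.362) in mLN and 0.55 (SE 0.337, adjusted p = 0.462) in iLN. None was called, and that of iLN turned to −0.39 in batch First alone and to −0.18 without iLN replicate 2. Whether the LN contrast itself differed between batches was tested as an interaction over all genes. For Smad7 the contrast was −0.31 in batch First and 0.99 in batch Second, a difference of −1.302 (edgeR adjusted p = 0.37). By edgeR 0 of 13600 genes passed an adjusted p under 0.05 in this test, and 1180 had an unadjusted p under 0.05. Batch Second holds 1 iLN sample.

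Ratios between 2 genes of the same sample do not depend on how libraries are scaled. The 2 receptor chains work as one complex, and the log2 ratio of Tgfbr1 to Tgfbr2 in TPM was −1.95 ± 0.277 (SD, n = 4) in thymus, −2.38 ± 0.247 (n = 4) in spleen, −2.98 ± 0.398 (n = 4) in mLN and −2.37 ± 0.212 (n = 3) in iLN. Tgfbr1 was thus between 0.0904 and 0.299 of Tgfbr2 in every sample. The ratio was lowest in mLN and highest in thymus, and those 2 tissues did not overlap. The mean of iLN (−2.37) was close to that of spleen (−2.38), so the pooled LN difference below comes from low mLN and high thymus. The ratio was lower in the 7 LN samples than in the 8 spleen and thymus samples by 0.55 (two-sided exact permutation test, p = 0.0174), a p that became 0.0522 after Benjamini-Hochberg adjustment over the 3 ratios. Permuted exactly within replicate numbers (a block), it gave p = 0.0139, or 0.0417 after adjustment, which passes 0.05. The ratio of expected counts, which does not carry the 1.63-fold spread in the effective length of Tgfbr1, differed by −0.56 (exact permutation test, p = 0.00575, 0.0172 after adjustment).

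The log2 ratio of Smad3 to Smad2 was between 0.16 and 2.76, so that Smad3 exceeded Smad2 in all 15 samples, by 1.12- to 6.80-fold. Its mean was 0.55 ± 0.303 (SD, n = 4) in mLN and 1.95 ± 0.705 (n = 3) in iLN, and mLN samples lay below all 3 iLN samples. LNs differed from the other tissues by −0.13 (two-sided exact permutation test, p = 0.746). The effective length of Smad3 varied 3.07-fold and that of Smad2 1.99-fold between samples, so that the ratio carries this spread as well.

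The log2 ratio of Skil to Ski was −0.39 ± 0.164 (SD, n = 4) in mLN, −0.75 ± 0.421 (n = 4) in thymus, −0.83 ± 0.382 (n = 3) in iLN and −0.96 ± 0.438 (n = 4) in spleen. Skil was below Ski in TPM in every sample, at 0.378 to 0.890 of it. LNs differed from the other tissues by 0.28 (p = 0.179 by a two-sided exact permutation test, 0.269 after adjustment), with −0.15 in batch First and 0.74 in batch Second.

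**Figure D5:**
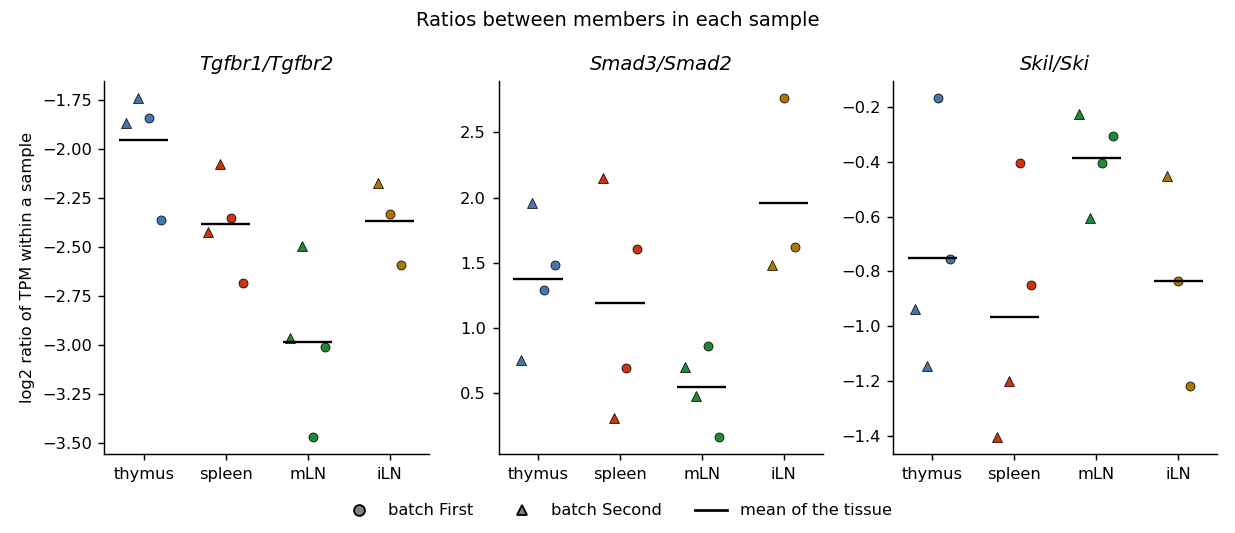
log2 ratio of TPM between 2 genes within each sample, by tissue; circles are batch First, triangles batch Second, and lines tissue means. The Tgfbr1/Tgfbr2 ratio is lowest in mLN (mean −2.98) and highest in thymus (mean −1.95), Smad3/Smad2 is above 0 and Skil/Ski below 0 in all 15 samples.

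Around these 9 genes, 7 lists of the pathway were read by the same call rule, counting a gene as called if it passed in any of the 6 pairs of tissues or in the LN contrast (3.94% of all genes tested). Of 13 genes of ligands, latency and activation, 7 were tested and 1 was called in any comparison. It was Furin, the protease that cuts the TGF-β precursor, with −1.40 on the log2 scale (SE 0.245, edgeR adjusted p = 0.00223) in thymus against spleen and 1.299 (SE 0.261, adjusted p = 0.00706) in iLN against thymus. The other 2 TGF-β ligand genes, Tgfb2 and Tgfb3, did not exceed 4.41 and 5.88 CPM in any sample.

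Of 12 other receptor genes of the superfamily, 6 were tested and 2 were called. Tgfbr3, the betaglycan co-receptor, had 98.5 CPM ± 20.2 (SD, n = 3) in iLN, 35.7 ± 7.66 (n = 4) in mLN, 28.4 ± 14.4 (n = 4) in thymus and 8.69 ± 4.13 (n = 4) in spleen. Its log2 fold change was 3.35 (SE 0.367, edgeR adjusted p = 2.33e-05) in iLN against spleen and 1.87 (SE 0.242, adjusted p = 1.21e-04) in LNs against spleen and thymus. Bmpr2, a type II receptor for BMPs, was higher in iLN than in spleen by 1.82 (SE 0.311, adjusted p = 0.00198). As with Ski and Skil, spleen had the lowest mean of both.

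Of the other 4 Smad genes, 2 were tested and none was called by edgeR. These were Smad5, with means of 35.3 to 52.0 CPM in the 4 tissues, and Smad1, which ranged from 8.76 to 54.6 CPM over the samples and had the lower p of the 4-tissue test (adjusted p = 0.337). Smad6 was at 0 in all samples and Smad9 did not exceed 0.359 CPM. Of 19 genes of receptor and Smad turnover, 16 were tested and 3 were called. Pmepa1, a membrane protein that binds Smad2 and Smad3 and is a known TGF-β target, had 64.2 CPM ± 14.1 (SD, n = 4) in thymus, 21.4 ± 3.87 (n = 4) in mLN, 7.41 ± 5.52 (n = 3) in iLN and 3.43 ± 2.39 (n = 4) in spleen, and differed by 4.21 on the log2 scale between thymus and spleen (SE 0.567, edgeR adjusted p = 1.73e-04). The ubiquitin ligase gene Wwp1 was lower in thymus than in spleen (−1.23, SE 0.2, adjusted p = 0.00109), and Smurf2, which encodes a ubiquitin ligase for Smads and receptors, was higher in mLN than in spleen (0.96, SE 0.176, adjusted p = 0.00663).

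Of 15 nuclear partners of the Smads, 14 were tested and 2 were called. Runx1, a transcription factor of T cell development, was lower in thymus than in spleen (−1.03, SE 0.143, edgeR adjusted p = 2.31e-04). It was higher in LNs than in the mean of spleen and thymus by 0.62 (SE 0.103, adjusted p = 0.00115), a contrast that averages in the low thymus. Against spleen alone its log2 fold change was 0.10 (adjusted p = 0.84) in mLN and 0.12 (adjusted p = 0.771) in iLN. Foxo1, which sustains naive T cells, was higher than in thymus in mLN (0.99, SE 0.149, adjusted p = 4.62e-04) and in iLN (0.88, SE 0.159, adjusted p = 0.00314). None of the 9 tested genes of the 10 in the Smad-independent branch was called by edgeR, and the lowest adjusted p of the 4-tissue test there was 0.347 (Tab2).

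Of 13 genes known to respond to TGF-β, 6 were tested and 3 were called, in different directions. Itgae, the αE integrin (CD103), had 262 CPM ± 38.8 (SD, n = 4) in thymus and 200.1 ± 32.8 (n = 3) in iLN against 13.98 ± 12.0 (n = 4) in mLN and 4.44 ± 2.77 (n = 4) in spleen. Its log2 fold change against spleen was 5.78 (SE 0.486, edgeR adjusted p = 5.78e-07) in thymus and 5.31 (SE 0.491, adjusted p = 6.83e-06) in iLN, and it was 3.84 (SE 0.449, adjusted p = 1.08e-04) between iLN and mLN. The chemokine gene Xcl1 was lower in LNs than in spleen and thymus (−1.04, SE 0.172, adjusted p = 0.00115) and Junb, an AP-1 subunit, was higher there (1.73, SE 0.323, adjusted p = 0.00334). Spleen had the lowest mean of Itgae and Pmepa1, as of Ski and Skil, but the other tissues ran in other orders. Skil was highest in mLN, where Itgae was not called against spleen (log2 fold change 1.47, SE 0.456, edgeR adjusted p = 0.143), and Itgae was highest in thymus and iLN.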

How the data were processed

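RNAseq was performed on iNKT cells sorted from thymus, spleen, mLN and iLN (15 samples, without iLN replicate 1, which is not analysed here). The authors trimmed paired-end 101 bp reads with Cutadapt 1.7.1 (quality threshold 10) and quantified genes with RSEM 1.2.31 and Bowtie2 2.2.9 against GRCm38. They deposited the expected count of each gene, with fragments of ambiguous origin divided among the genes they match. They also deposited TPM, which divides by the effective gene length. Strandedness is not given in the sources used here, and a read from an antisense transcript cannot be told apart where the counting ignores strand.

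Expected counts were rounded, filtered with filterByExpr (13600 of 48795 genes) and TMM-normalised in R 4.3.3. The quasi-likelihood test of edgeR 4.0.16 was fitted to all 15 samples with tissue and batch, and p-values were adjusted by Benjamini-Hochberg over all genes tested. SEs were derived from the log2 fold change and its F statistic. DESeq2 1.42.0 was the alternative test. Other alternatives were RLE normalization, 2 other filters on low counts, removal of rRNA genes, no batch term, a replicate block, each batch alone, only the 2 tissues compared, and leaving out each library. Ratios of TPM were tested by exact permutation in Python 3.11.15 with numpy 2.4.6, and expected counts were the alternative. P-values measure the spread between these samples, which may be technical. No 2 replicates were alike within sampling noise.

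The labels give same-numbered samples of different tissues 1 unit name, which was taken as the pairing. After subtraction of tissue means, same-numbered samples correlated at 0.114 on average (lowest 0.00394 of 21 pairs, 13 over 0.1), 0.0988 between other samples of the same batch and −0.103 between batches.

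The 9 genes, the pathway lists and the markers were chosen with earlier results of these data known. From each pathway list at most 5 genes called in a pair of tissues or in the LN contrast were named, by the smallest p of the 4-tissue test, or the gene with the smallest p where none was called. For likeness, the 3 genes with the highest correlation were named for the 2 genes with the smallest p. Promoter sequence is from RefSeq (GRCm38.p6), in which 5 of the 6 genes that lie outside chromosome 18 were matched.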

Additional observations from a re-analysis of the deposited data

Results flagged for a closer look

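The highest of 4 samples stood apart from the rest of its group in 3 of 36 groups of 4 examined (the 9 genes and 3 ratios in thymus, spleen and mLN), where chance gives about 1 in 20. Tgfbr1 had 50.2 CPM in mLN replicate 2. Tgfbr2 had 220.5 CPM in spleen replicate 1, the same library that held the highest Ski of spleen (138.9 CPM). Without spleen replicate 1, Ski was also called in iLN against spleen, as given above.

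The LN contrast of Smad3 ran in opposite directions in the batches, at 0.21 in batch First and −0.25 in batch Second on the log2 scale, a difference of 0.453. All LN samples of batch First lay above the mean of spleen and thymus of that batch, and all of batch Second lay below it. The interaction test of edgeR gave an adjusted p of 0.647, so that the difference did not pass.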

How the results depend on the processing

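The 5 calls over pairs of tissues became 3 without the batch term, 3 with the replicate block, 3 with only the 2 tissues compared and 0 in either batch alone, and 6 with DESeq2, without a filter on low counts and with at least 10 counts in every sample, where Ski in iLN against spleen was also called. They were 3 to 5 on leaving out 1 library. The LN contrast, with 0 calls, gave 1 with DESeq2, 1 without a filter on low counts and 0 to 1 on leaving out 1 library. The 2 calls over the 4 tissues became 1 without batch, 1 in batch First, 0 in batch Second and 1 to 2 on leaving out 1 library. Thymus against the periphery, with 0 calls, gave 0 to 1 on leaving out 1 library, and the 6 tests at an adjusted p under 0.05 became 2 in batch Second and 5 to 7 on leaving out 1 library. With DESeq2, 8 tests over the pairs of tissues had an adjusted p under 0.05. The replicate block changed the call of Ski in mLN and of Skil in iLN, both given above, and no other call of a gene. Smad7 in iLN against spleen reversed to −0.39 in batch First and ranged from −0.18 to 0.89 on leaving out 1 library, the lowest without iLN replicate 2. The Tgfbr1/Tgfbr2 difference was −0.54 in batch First (exact permutation p = 0.2) and −0.51 in batch Second (p = 0.114), and −0.64 to −0.42 on leaving out 1 library (p = 0.0139 with the replicate block, which passed 0.05 after adjustment over the 3 ratios). That of Smad3/Smad2 reversed to 0.0845 in batch First and ranged from −0.40 to 0.0355, the highest without mLN replicate 4 (block p = 0.798 by exact permutation). That of Skil/Ski was −0.15 in batch First and 0.74 in batch Second (exact permutation p = 0.0286) and ranged from 0.20 to 0.39 (block p = 0.174). The cause of these changes was not tested, other than that single batches and left-out libraries hold fewer samples. Over all genes the 459 calls of the 4-tissue test became 1002 with DESeq2 and 1134 without a filter, those of thymus against spleen rose from 179 to 387 and 393, those of mLN against spleen from 89 to 248 and 273 (29 without batch), and those of iLN against spleen from 211 to 556 and 544. The batch interaction was fitted in 1 way only.

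Depth limits the rarer mRNAs, since Smad7 rested on 43 expected counts in thymus replicate 2. Over the pairs of tissues the SE of the 9 genes was 0.142 to 0.34 on the log2 scale. Differences well above a small fraction of a log2 unit could thus go uncalled with 3 or 4 samples per tissue. Tgfbr2 in mLN against spleen (0.52, SE 0.142, edgeR adjusted p = 0.0842) and Smad7 in thymus against spleen (0.73, SE 0.315, adjusted p = 0.385) were not called.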
